A study of Mus musculus with 14 samples.

Results

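The genes that write, copy and help to remove DNA methylation were measured in mouse B cells with and without loss of Tet2, an enzyme that oxidises 5-methylcytosine. The 9 genes were Dnmt1, Uhrf1, Dnmt3a, Dnmt3b, Tdg, Mbd4, Gadd45a, Gadd45b and Gadd45g, taken by name from the 41053 gene rows that both count tables hold, and all 9 passed the filter on low counts in every comparison. Transcripts were counted by RNA-seq in 14 libraries from spleen of the C57BL/6 strain. Germinal center (GC) B cells, the dividing B cells in which antibody genes mutate, gave 4 libraries with the genotype TET2 Knock-Out (KO, replicates 2 to 5) and 3 with TET2 Wild-Type (WT, replicates 1, 3 and 4). Lymphoma B cells gave 2 libraries with the genotype TET2 Knock-Down (shTet2, a short hairpin RNA against Tet2) and 5 control libraries with the genotype TET2 Wild-Type. Ages are not given. The titles of the shTet2 libraries share a number, while each control library has its own, and no label says whether replicates were separate animals, so every p-value rests on library-to-library spread, which may be technical. The part of Tet2 that was deleted, the driver of the deletion and the origin of the lymphoma are not stated in the sources used here.

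DNMT1 copies methylation onto the new DNA strand after replication, and UHRF1 brings it to sites where only the old strand is methylated. DNMT3A and DNMT3B add methyl groups to sites that carried none. In demethylation TET enzymes oxidise the methyl group, and the glycosylase TDG cuts out the oxidised bases so that base excision repair can fill in cytosine, while MBD4 removes thymine or uracil from mismatches at CpG sites. The GADD45 proteins are small stress-induced proteins that bind kinases and cell cycle regulators and have been reported to help demethylation by recruiting repair enzymes.

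Counts outside a list of ribosomal and other structural RNA rows came to 29268615 to 30057353 in KO, 26833957 to 30252423 in WT, 5158094 to 6761741 in shTet2 and 1523082 to 6258357 in control lymphoma libraries. The listed rows took 0.713% to 1.04% of all counts in KO, 0.370% to 1.32% in WT, 45.0% to 54.1% in shTet2 and 57.5% to 80.7% in control lymphoma libraries, with control replicate 2 the highest and the shallowest. The B-cell receptor gene Cd79b, a B-cell marker, had 1998 to 2331 CPM in KO, 1956 to 2029 CPM in WT, 1125 to 1375 CPM in shTet2 and 1168 to 1411 CPM in control libraries. CPM are normalised read counts from one TMM scaling of all 14 libraries together. The GC B-cell marker S1pr2 averaged 488 ± 18.5 CPM in KO and 507 ± 54.3 CPM in WT cells (SD, n = 4 and 3), and 62.2 ± 21.3 CPM in shTet2 and 8.71 ± 5.10 CPM in control lymphoma cells (SD, n = 2 and 5). Tet2 itself stood at 15.3 ± 1.40 CPM in KO and 14.2 ± 1.17 CPM in WT cells (SD, n = 4 and 3), and at 136 ± 7.73 CPM in shTet2 and 154 ± 11.5 CPM in control lymphoma cells (SD, n = 2 and 5). Neither difference passed the test, so the Tet2 row does not check the labels, and reads outside a deleted part would be counted. Tet1 (-0.05 and -1.21) and Tet3 (0.27 and -0.37), by log2 fold change in the GC and the lymphoma comparison, did not pass either.

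Of the 9 genes, 2 passed edgeR's quasi-likelihood test (Benjamini-Hochberg adjusted p under 0.05) between KO and WT GC B cells, Gadd45g higher and Dnmt3a lower, while 6.5% of the 13587 genes tested did, 1.9% higher and 4.6% lower. Between shTet2 and control lymphoma cells 2 of 9 passed, Dnmt1 and Mbd4, both higher, against 2.65% of 12544 genes, 1.89% higher and 0.757% lower. A model of all 4 groups tested the difference between these effects, and 2 of 9 passed, Uhrf1 (positive) and Gadd45g (negative), against 4.49% of 16378 genes, 3% positive and 1.49% negative. Between control lymphoma and WT GC B cells all 9 passed, 3 higher and 6 lower, where 80.5% of 16378 genes did, 41.5% higher and 39% lower, so a pass in that contrast says little about a single gene. Groups did not overlap for 3 of the 9 genes between KO and WT cells, 2 of them higher in KO, against 21.1% of all genes, 13.4% higher. They did not overlap for 3 of 9 between shTet2 and control lymphoma cells, all higher in shTet2, against 21.2% of all genes, 13% higher. Between control lymphoma and WT GC B cells they did not overlap for 8 of 9, 2 of them higher in control lymphoma cells, against 71.7% of all genes, 34.7% higher. The median absolute log2 fold change of the 9 genes was 0.15 in the GC comparison and 0.53 in the lymphoma comparison, against 0.15 and 0.22 over all genes tested. The genes that passed in the GC comparison were thus not those that passed in the lymphoma comparison. In bulk RNA, fewer cells of a type and less RNA per cell cannot be told apart.

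**Figure D1:**
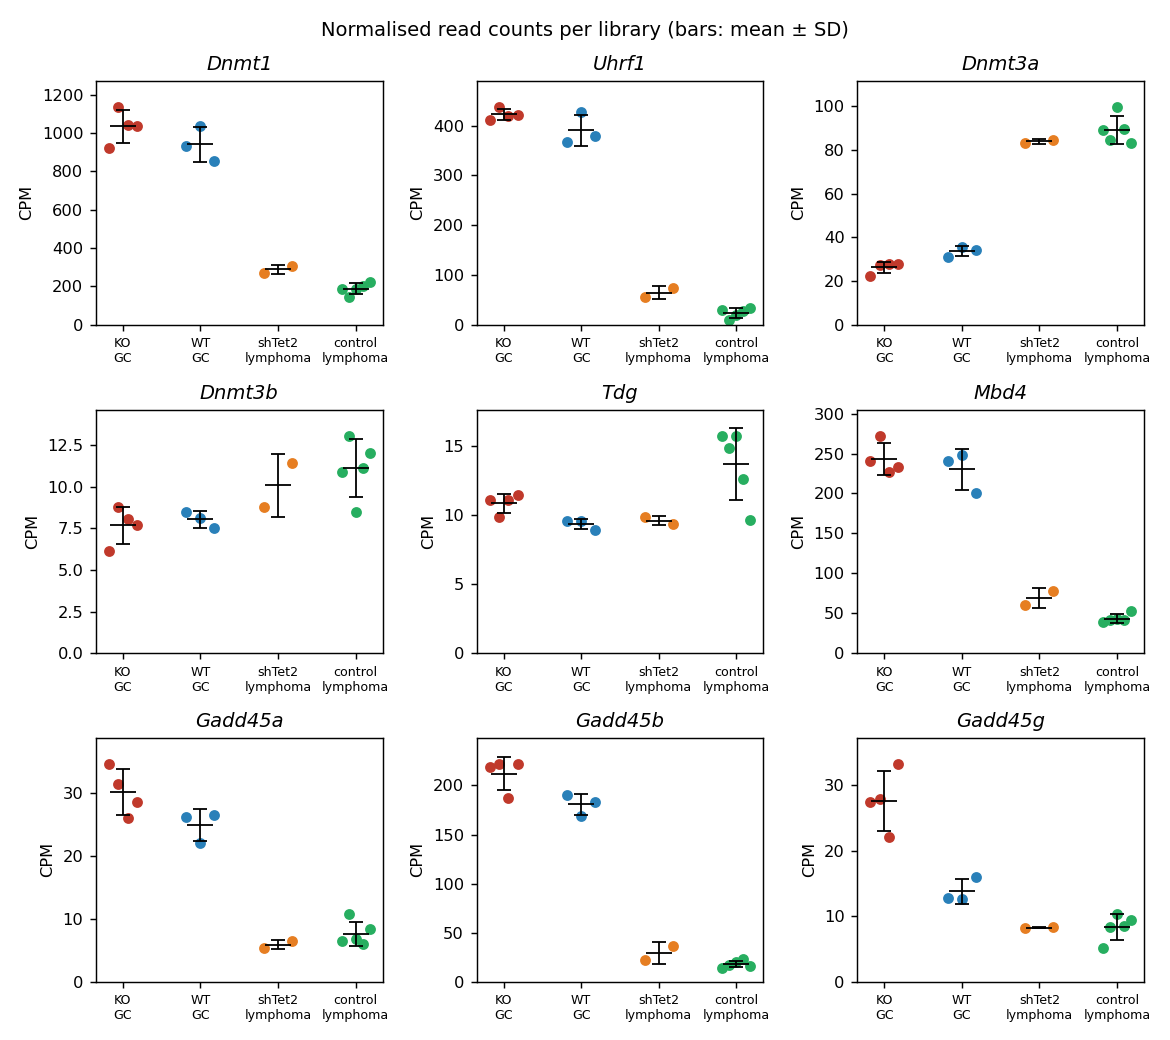
Normalised read counts (CPM, linear axes from 0) of the 9 genes in each library, one point per library, with the mean and SD of each group. Dnmt3a stands lower and Gadd45g higher in all 4 KO than in all 3 WT libraries, and Dnmt1, Uhrf1 and Mbd4 stand higher in both shTet2 libraries than in all 5 control lymphoma libraries.

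Levels differed widely among the genes. Per kilobase of exon, Gadd45b and Dnmt1 were the most abundant in GC B cells, at 168 ± 13.4 and 164 ± 13.7 CPM per kb in KO and 143 ± 8.50 and 149 ± 14.4 CPM per kb in WT cells. Uhrf1 followed at 99.2 ± 2.50 CPM per kb in KO and 91.8 ± 7.35 CPM per kb in WT cells, and Mbd4 at 48.0 ± 4.02 and 45.5 ± 5.01 CPM per kb. The de novo enzymes and Tdg were the scarcest. Dnmt3b had 1.51 ± 0.220 CPM per kb in KO and 1.58 ± 0.0994 in WT cells, Dnmt3a 1.58 ± 0.157 and 2.02 ± 0.141, and Tdg 2.02 ± 0.127 and 1.74 ± 0.0712. The Dnmt3a row counts 16642 exon bases, the most of the 9, which lowers its level per kilobase relative to a count over one transcript. In the lymphoma cells the span was narrower, with Dnmt1 at 45.9 ± 3.91 CPM per kb in shTet2 and 29.9 ± 4.62 in control cells, and Tdg and Dnmt3b between 1.79 and 2.55 CPM per kb on average in both groups.

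**Figure D2:**
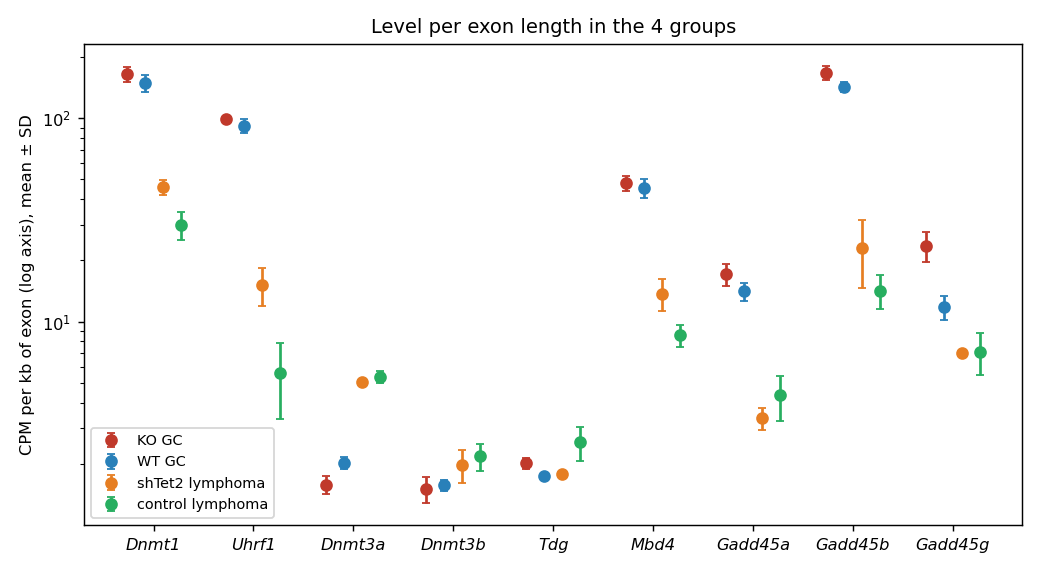
Level of the 9 genes per kilobase of exon (CPM per kb, log axis) as mean ± SD in KO GC (n = 4), WT GC (n = 3), shTet2 lymphoma (n = 2) and control lymphoma libraries (n = 5). Dnmt1, Uhrf1, Mbd4, Gadd45a and Gadd45b lie far lower in both lymphoma groups than in both GC groups, while Dnmt3a lies higher.

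The sequences just upstream of a transcription start of Dnmt1, Uhrf1 and Mbd4 are shown because these genes stood higher in both shTet2 lymphoma libraries than in every control. The row of Dnmt1 spans GRCm38 chr9:20907206-20959888 on the minus strand, that of Uhrf1 chr17:56303321-56323486 on the plus strand and that of Mbd4 chr6:115840697-115853371 on the minus strand. Each sequence runs 5′ to 3′ on the gene's strand and ends at a RefSeq transcription start on GRCm38.p6, or up to 50 bases before it, so that it holds no base of an exon counted in the files. The windows are chr9:20952980-20953229 for Dnmt1, where the table lists 3 start sites, chr17:56304063-56304312 for Uhrf1, where it lists 2, and chr6:115853372-115853591 for Mbd4. The Dnmt1 and Uhrf1 windows lie inside the spans of their rows. Of several start sites, the one whose window shared the fewest counted exon bases was taken, and among equals the most downstream. Windows of the other start sites are not shown. Capitals mark matches on either strand to CCAAT, read by the factor NF-Y, or to a form of the site of the cell cycle factors E2F. The forms searched were TTCCCGC, then the form TTGGCGC, then the form TTCGCGC and lastly the form TTGCCGC.
Dnmt1: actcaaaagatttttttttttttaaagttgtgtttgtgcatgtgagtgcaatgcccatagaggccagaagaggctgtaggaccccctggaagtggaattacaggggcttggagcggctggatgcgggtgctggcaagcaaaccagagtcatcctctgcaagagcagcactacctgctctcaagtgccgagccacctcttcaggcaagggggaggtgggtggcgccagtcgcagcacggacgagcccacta
Uhrf1: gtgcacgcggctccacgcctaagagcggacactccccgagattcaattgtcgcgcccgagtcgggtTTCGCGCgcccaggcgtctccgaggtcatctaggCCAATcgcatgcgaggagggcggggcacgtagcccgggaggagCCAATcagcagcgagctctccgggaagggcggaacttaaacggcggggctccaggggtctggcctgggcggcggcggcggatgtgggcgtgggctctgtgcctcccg
Mbd4: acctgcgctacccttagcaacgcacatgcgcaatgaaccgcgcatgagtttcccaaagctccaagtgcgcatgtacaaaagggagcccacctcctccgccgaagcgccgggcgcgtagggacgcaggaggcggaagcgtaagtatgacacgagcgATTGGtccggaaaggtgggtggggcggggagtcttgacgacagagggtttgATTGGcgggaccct
The Uhrf1 window held 1 E2F match (TTCGCGC) and 2 CCAAT matches that do not overlap, the Mbd4 window held 2 CCAAT matches on the opposite strand (ATTGG), and the Dnmt1 window held no match. Over all 32851 windows of 250 bases in the table, 7.9% held an E2F match and 33.8% a CCAAT match. CG dinucleotides numbered 7 in the Dnmt1 window, 30 in that of Uhrf1 and 21 in the 220 bases shown for Mbd4, against a median of 6 per window. At least 7 were found in 46.3% of windows and at least 30 in 5.94%. These matches are letters and were not tested as sites.

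Dnmt1, the maintenance methyltransferase, rose in shTet2 lymphoma cells and did not pass the test in KO GC B cells. The shTet2 libraries had 272 and 307 CPM in replicates 1 and 2, against 187, 144, 185, 205 and 222 CPM in control replicates 1 to 5. Both shTet2 libraries lay above every control, and control replicate 2 was the lowest of the 7. The log2 fold change was 0.58 (SE 0.13, adjusted p = 0.0337, edgeR). This call was lost without shTet2 replicate 2 (0.49, adjusted p = 0.202) or without control replicate 1 (0.0928), 2 (0.0564), 3 (0.0948) or 4 (0.0559), while the estimate stayed positive. In GC B cells the KO libraries had 924, 1135, 1041 and 1039 CPM in replicates 2 to 5, against 931, 1035 and 855 CPM in WT replicates 1, 3 and 4. The groups overlapped (log2 fold change 0.07, SE 0.09, adjusted p = 0.748). The difference between the lymphoma and the GC effect was 0.47 (SE 0.17, adjusted p = 0.127).

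Uhrf1, which guides DNMT1 to newly replicated DNA, showed the largest estimate of the 9 genes in the lymphoma comparison. It had 54.9 and 74.3 CPM in shTet2 replicates 1 and 2, against 29.5, 8.92, 20.1, 27.4 and 32.9 CPM in control replicates 1 to 5. The groups did not overlap, and the value of control replicate 2 rests on 15 counts. The log2 fold change of 1.37 (SE 0.33, a 2.58-fold higher level) missed the threshold with an adjusted p of 0.0807 (edgeR). It passed without control replicate 2 (1.22, adjusted p = 0.0236), with DESeq2 (1.39, adjusted p = 0.000574), with limma-voom (1.39, adjusted p = 0.0427) and in the model of all 4 groups (1.38, adjusted p = 0.00222). KO GC B cells had 412, 437, 420 and 421 CPM in replicates 2 to 5, against 368, 426 and 379 CPM in WT replicates 1, 3 and 4. These groups overlapped (log2 fold change 0.04, SE 0.08, adjusted p = 0.831). The difference between the effects, 1.26 (SE 0.29), passed the test (adjusted p = 0.0242), but not without WT replicate 3 (1.21, adjusted p = 0.0537) or shTet2 replicate 2 (1.14, adjusted p = 0.128). Per kilobase, Uhrf1 stood at 0.329 ± 0.0425 of the Dnmt1 level in shTet2 and at 0.181 ± 0.0568 in control lymphoma cells, and at 0.607 ± 0.0375 in KO and 0.617 ± 0.0362 in WT GC B cells. Its close relative Uhrf2 had 119 ± 12.5 CPM in KO and 93.7 ± 4.70 CPM in WT cells (0.28, SE 0.09, adjusted p = 0.0911), and 109 ± 4.81 CPM in shTet2 and 98.9 ± 5.85 CPM in control lymphoma cells (0.11, SE 0.09, adjusted p = 0.539).

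Among 9 partners of maintenance methylation, 3 rose in shTet2 lymphoma cells and none fell, with a median log2 fold change of 0.28. They were Hells (1.14, SE 0.15, adjusted p = 0.00419), a chromatin remodeller needed for methylation of repeats, Lig1 (1.02, SE 0.19), the ligase that joins replication fragments, and Cdca7 (0.99, SE 0.20), which activates the remodeller HELLS. Of the 7 fits that left out a library, all kept the Hells call, while 3 lost that of Lig1 (adjusted p up to 0.118, edgeR) and 5 that of Cdca7 (up to 0.214). Hells had 75.8 ± 20.7 CPM in shTet2 and 33.6 ± 3.61 CPM in control cells. The same 3 genes passed in the difference between effects (0.97, 0.93 and 0.94). In KO GC B cells edgeR called 0 of the 9 partners, with 1 at an unadjusted p under 0.05 (Uhrf2), and DESeq2 and limma-voom called 0.

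Genes of S phase and mitosis moved in the same lymphoma libraries. Of 24 S phase and replication genes, 9 were called higher and 0 lower in shTet2 cells (median 0.82), among them the replicative polymerase gene Pola1 (0.82, SE 0.11) and the origin licensing gene Cdc6 (1.72, SE 0.34). That count was 18 without shTet2 replicate 1, 1 without shTet2 replicate 2, 2 without control replicate 1 and 1 without control replicate 3, and 14 with DESeq2. Of 16 G2 and mitosis genes, 15 were called higher (median 1.85), such as the kinesin gene Cenpe (1.62, SE 0.15) and the mitotic kinase gene Plk1 (1.99, SE 0.25), and leaving out a library gave 10 to 16 calls. The S phase genes summed to 1298 and 1653 CPM in shTet2 replicates 1 and 2, against 744 to 1008 CPM in the controls. Dnmt1 amounted to 20.9% and 18.6% of that sum in the shTet2 libraries, against 19.3% to 22.0% in the controls, so on this relative scale the groups overlapped. Uhrf1 amounted to 4.23% and 4.50% of it in shTet2, against 1.20% to 3.26% in control libraries, which do not overlap. Set against the sum of the mitosis genes, the order was the other way round for Dnmt1, at 20.7% and 14.5% in shTet2 and 36.5% to 56.1% in control libraries, without overlap. Uhrf1 amounted to 4.18% and 3.52% of the mitosis sum in shTet2, against 3.18% to 7.02% in control libraries, so these groups overlapped. The part of the S phase or mitosis level in either result was not tested beyond these shares. The GC B-cell markers S1pr2 (2.74, SE 0.44, adjusted p = 0.0283) and Fas (1.30, SE 0.23, adjusted p = 0.0145) were also called higher in shTet2 cells, while Bcl6 was not (-0.01, SE 0.13, adjusted p = 0.973). Of 5 plasma cell markers tested, 2 were called higher, Prdm1 (1.22, adjusted p = 0.0323) and Xbp1 (0.82, adjusted p = 0.00758), and 0 lower, and the markers summed to 755 to 1254 CPM in shTet2 and 536 to 769 CPM in control libraries. The part of either marker list in the lymphoma results was not tested. In KO GC B cells edgeR called 0 of 24 S phase genes (median 0.07, 2 at an unadjusted p under 0.05) and 0 of 16 mitosis genes (median 0.04, 1 at an unadjusted p under 0.05), and DESeq2 and limma-voom called 0 of both.

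**Figure D3:**
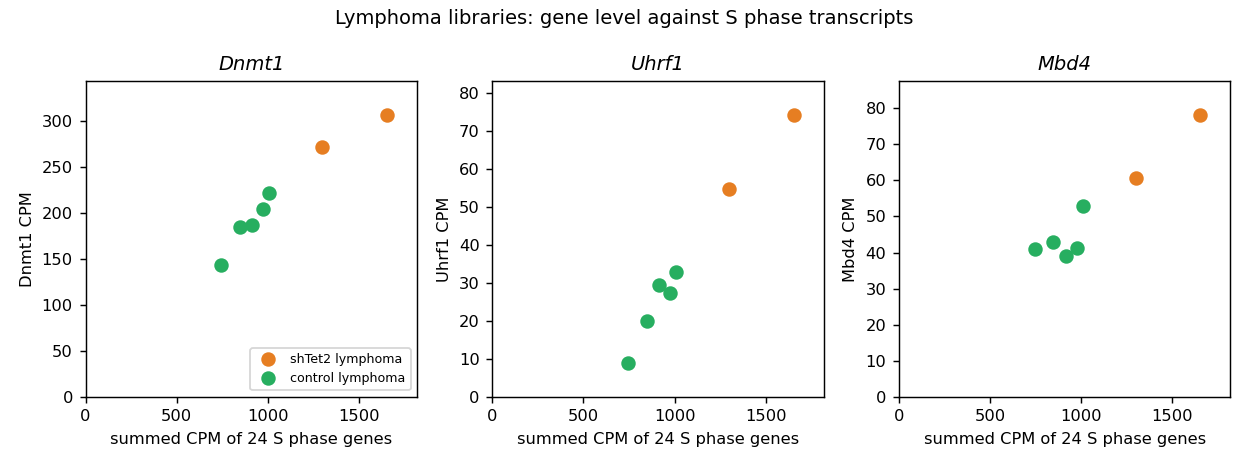
Normalised read counts (CPM) of Dnmt1, Uhrf1 and Mbd4 against the summed CPM of 24 S phase and replication genes in the 2 shTet2 and 5 control lymphoma libraries, one point per library, linear axes from 0. Both shTet2 libraries lie at the upper right in each panel, at sums of 1298 and 1653 CPM, against 744 to 1008 CPM in the controls.

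The de novo enzyme gene Dnmt3a (GRCm38 chr12:3806007-3914443, plus strand) fell in KO GC B cells. The KO libraries had 22.4, 27.3, 27.9 and 27.6 CPM in replicates 2 to 5, against 31.1, 35.7 and 34.3 CPM in WT replicates 1, 3 and 4. All KO values lay below all WT values, and KO replicate 2 lay apart from the other 3. The log2 fold change was -0.43 (SE 0.11, adjusted p = 0.0277, edgeR), a 1.34-fold lower level. In 4 of 7 fits that left out a library Dnmt3a no longer passed, namely without KO replicate 2 (-0.35, adjusted p = 0.0530), KO replicate 5 (-0.45, adjusted p = 0.0544), WT replicate 3 (-0.39, adjusted p = 0.112) or WT replicate 4 (-0.40, adjusted p = 0.0819). Myeloid markers moved in the same direction. Of 10 tested, 9 were called lower in KO cells (median -1.22), their 13 listed genes summed to 85.8 to 89.2 CPM in KO and 143 to 159 CPM in WT libraries, and 0 of the 13 were at 0 in every library of a group. T-cell markers were mixed. Of 5 tested, 1 was called higher, Thy1 (2.51, adjusted p = 0.000368), and 1 lower, Lck (-0.54, adjusted p = 0.00315), with a median of -0.17. Cd3d (-0.17), Cd3g (-1.50) and Cd4 (0.58) were not called, and Cd3e, Cd8a and Trbc2 did not pass the filter. The 8 listed genes summed to 135 to 163 CPM in KO and 179 to 230 CPM in WT libraries. This sum includes Lck and does not measure T-cell content. The sums of 4 Y-linked genes, listed after the data were seen, were 196 to 216 CPM in KO and 105 to 127 CPM in WT libraries. These sums were 0 CPM in all shTet2 and control lymphoma libraries. The part of any of these in the Dnmt3a result was not tested.

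In lymphoma cells Dnmt3a had 83.0 and 84.7 CPM in shTet2 replicates 1 and 2, against 89.2, 84.4, 99.6, 89.6 and 83.3 CPM in control replicates 1 to 5. The groups overlapped (log2 fold change -0.12, SE 0.10, adjusted p = 0.547), and the difference between the effects was 0.26 (SE 0.15, adjusted p = 0.354). Dnmt3b, the other de novo enzyme gene (chr2:153649450-153687730, plus strand), was low throughout. It ranged over 6.14 to 8.80 CPM in KO and 7.50 to 8.50 CPM in WT GC B cells, and over 8.76 to 11.4 CPM in shTet2 and 8.47 to 13.1 CPM in control lymphoma cells. Its log2 fold changes were -0.13 (SE 0.16, adjusted p = 0.713) in the GC and -0.15 (SE 0.23, adjusted p = 0.762) in the lymphoma comparison. Control lymphoma replicate 2 held 22 Dnmt3b counts, so small changes were not detectable at this depth. The antisense gene Dnmt3aos shares 133 exon bases with Dnmt3a on the other strand and held 5 counts in all GC and 51 in all lymphoma libraries, and the counting used no strand option. Dnmt3l, the catalytically inactive partner of the de novo enzymes, did not pass the filter on low counts.

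Among 9 tested partners and opponents of de novo methylation, 1 rose in shTet2 lymphoma cells and none fell (median 0.01). It was Setdb1, a histone H3 lysine methyltransferase gene that silences repeats, with 103 ± 9.68 CPM in shTet2 and 76.1 ± 2.06 CPM in control cells (0.40, SE 0.09, adjusted p = 0.0434). The Setdb1 call was kept without shTet2 replicate 1 and lost in the other 6 fits that left out a library (adjusted p up to 0.313, edgeR), and limma-voom called 0 of the list. None of the 9 passed edgeR, DESeq2 or limma-voom in KO GC B cells, and 0 had an unadjusted p under 0.05. Of 9 readers of methylated CpG sites, 1 fell in KO GC B cells. It was Zbtb38, a zinc finger gene whose protein binds methylated DNA, with 98.1 ± 6.35 CPM in KO and 141 ± 29.7 CPM in WT cells (-0.59, SE 0.12, adjusted p = 0.00583). In the lymphoma comparison 0 readers passed edgeR and 0 limma-voom, 4 had an unadjusted p under 0.05 and DESeq2 called 1. The difference between the Zbtb38 effects passed the test (0.98). Genes that supply the methyl donor held 2 higher calls of 10 in shTet2 lymphoma cells, the mitochondrial folate enzyme genes Shmt2 (0.75, SE 0.16) and Mthfd2 (1.03, SE 0.24). On leaving out a library 6 of 7 fits lost the Shmt2 call (0.36 to 1.06) and 5 of 7 that of Mthfd2 (0.53 to 1.41), and limma-voom called 0 of the list.

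**Figure D4:**
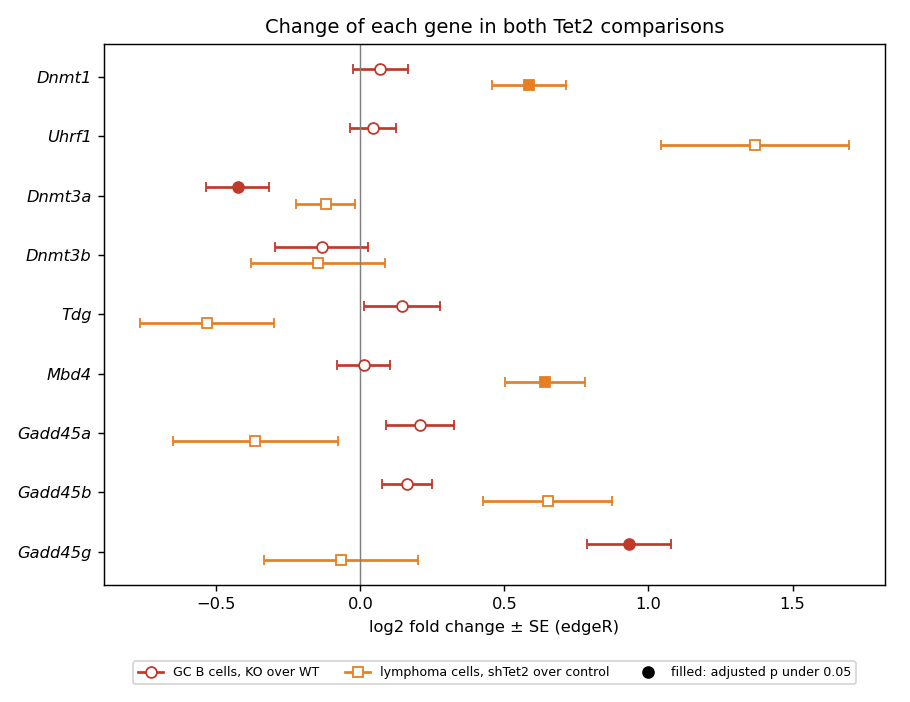
Log2 fold change ± SE (edgeR) of the 9 genes in GC B cells (KO over WT, circles) and in lymphoma cells (shTet2 over control, squares), with filled symbols for an adjusted p under 0.05. Gadd45g (0.93) and Dnmt3a (-0.43) are filled in GC B cells, and Dnmt1 (0.58) and Mbd4 (0.64) in lymphoma cells.

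Mbd4, the glycosylase gene for mismatches at CpG sites, rose in shTet2 lymphoma cells. It had 60.5 and 78.2 CPM in shTet2 replicates 1 and 2, against 39.1, 41.0, 43.0, 41.1 and 52.8 CPM in control replicates 1 to 5. Both shTet2 libraries exceeded every control, of which replicate 5 was set apart from the other 4. The log2 fold change was 0.64 (SE 0.14, adjusted p = 0.0319, edgeR), a 1.56-fold higher level. S phase and mitosis genes were higher in the same libraries, and their part in the Mbd4 result was not tested. The call was lost without shTet2 replicate 2 (0.44, adjusted p = 0.256) and without control replicate 1 (0.0861), 2 (0.0845), 3 (0.0861) or 4 (0.0714). KO GC B cells had 240.1, 272, 227 and 233 CPM in replicates 2 to 5, against 241, 248 and 201 CPM in WT replicates 1, 3 and 4. These groups overlapped (0.01, SE 0.09, adjusted p = 0.971), and the difference between the effects was 0.58 (SE 0.17, adjusted p = 0.0539).

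Tdg, the glycosylase gene for oxidised methylcytosine (chr10:82629828-82650799, plus strand), was scarce in all groups. KO libraries had 9.88 to 11.4 CPM and WT libraries 8.92 to 9.61 CPM, without overlap but also without a call (log2 fold change 0.15, SE 0.13, adjusted p = 0.603). In lymphoma cells Tdg had 9.84 and 9.36 CPM in shTet2 replicates 1 and 2, against 15.7, 14.9, 15.8, 12.6 and 9.64 CPM in control replicates 1 to 5. Control replicate 5 fell between the shTet2 values and the others stood above both (-0.53, SE 0.23, adjusted p = 0.239). The Mbd4 level per kilobase was 7.70 ± 1.65 times that of Tdg in shTet2 and 3.55 ± 1.30 times in control lymphoma cells, and 23.9 ± 3.64 times in KO and 26.1 ± 1.89 times in WT GC B cells. Tdg shares 367 exon bases with Glt8d2 on the other strand, and it has processed copies elsewhere in the genome whose shared reads may not have been counted, so its level is uncertain.

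Base excision repair genes held 3 higher and 0 lower calls of 13 tested in shTet2 lymphoma cells (median 0.14). Ung, the uracil glycosylase gene that also serves antibody diversification, had 16.6 ± 4.97 CPM in shTet2 and 8.20 ± 1.08 CPM in control cells (0.99, SE 0.23, adjusted p = 0.0402). Neil1 and Neil3, glycosylase genes for oxidised bases, rose by 0.73 (SE 0.15) and 1.89 (SE 0.43). Leaving out a library gave 0 to 4 calls, 4 without shTet2 replicate 1, 2 without control replicate 5 and 0 in each other fit. Ung, Neil1 and Neil3 thus lost their calls in 6, 5 and 5 of these 7 fits. All 3 passed in the difference between effects, Ung with 0.98, Neil3 with 1.67 and Neil1 with 0.54 (adjusted p = 0.0486, edgeR), and 11 of 14 fits that left out a library lost the Neil1 call. In KO GC B cells 0 of 14 were called by edgeR, DESeq2 or limma-voom, and 2 had an unadjusted p under 0.05.

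The upstream sequences of the 3 Gadd45 genes are shown because these paralogs moved unequally. The rows lie at chr6:67035096-67037457 (Gadd45a, minus strand), chr10:80930091-80932204 (Gadd45b, plus strand) and chr13:51846678-51848468 (Gadd45g, plus strand). The windows are chr6:67037458-67037657, chr10:80929841-80930090 and chr13:51846425-51846674, from RefSeq on GRCm38.p6, written 5′ to 3′ on the gene's strand with matches to the same motifs in capitals.
Gadd45a: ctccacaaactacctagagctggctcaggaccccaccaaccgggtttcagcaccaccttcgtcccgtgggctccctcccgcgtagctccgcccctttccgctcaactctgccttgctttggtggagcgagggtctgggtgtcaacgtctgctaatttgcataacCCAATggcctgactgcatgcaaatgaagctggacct
Gadd45b: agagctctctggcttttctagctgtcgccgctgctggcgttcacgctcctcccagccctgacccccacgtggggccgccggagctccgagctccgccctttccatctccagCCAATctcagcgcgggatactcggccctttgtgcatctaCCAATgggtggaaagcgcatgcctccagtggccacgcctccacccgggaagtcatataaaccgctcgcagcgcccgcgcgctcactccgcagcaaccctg
Gadd45g: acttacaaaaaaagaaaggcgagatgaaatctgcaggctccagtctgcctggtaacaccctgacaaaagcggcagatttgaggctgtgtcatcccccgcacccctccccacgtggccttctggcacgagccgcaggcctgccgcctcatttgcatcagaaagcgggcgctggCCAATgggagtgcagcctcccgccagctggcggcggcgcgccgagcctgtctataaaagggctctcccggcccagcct
Each window held at least 1 CCAAT match, with 2 for Gadd45b, and none held an E2F match. CG dinucleotides numbered 9 in the 200 bases of Gadd45a, 22 in Gadd45b and 16 in Gadd45g, and 14.8% and 25.4% of all windows held as many as the last pair.

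Gadd45g rose in KO GC B cells and gave the largest change of the 9 genes there. The KO libraries had 27.4, 27.9, 22.0 and 33.2 CPM in replicates 2 to 5, against 12.8, 12.6 and 16.0 CPM in WT replicates 1, 3 and 4. All KO values lay above all WT values. The log2 fold change was 0.93 (SE 0.15, adjusted p = 0.000978, edgeR), a 1.91-fold higher level, and the call held in all 7 fits that left out a library (0.83 to 1.06). In lymphoma cells it had 8.22 and 8.32 CPM in shTet2 replicates 1 and 2, against 5.13, 8.32, 10.4, 8.57 and 9.43 CPM in control replicates 1 to 5. These overlapped (log2 fold change -0.07, SE 0.27, adjusted p = 0.916). The difference between the effects was -1.06 (SE 0.28, adjusted p = 0.0357), and 9 of 14 fits that left out a library lost this call, with estimates of -1.18 to -0.94. The KO and WT myeloid, T-cell and Y-linked values given above are of the same libraries, and their part in the Gadd45g result was not tested. Thy1 was the T-cell marker called in the direction of Gadd45g and Lck the one called against it.

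Gadd45b, the most abundant of the 3, had 218, 222, 187 and 222 CPM in KO replicates 2 to 5, against 189.99, 169 and 183 CPM in WT replicates 1, 3 and 4. Only KO replicate 4 fell within the WT range (0.16, SE 0.09, adjusted p = 0.336). It had 21.7 and 36.9 CPM in shTet2 replicates 1 and 2, against 14.1, 16.6, 20.4, 22.7 and 16.2 CPM in control replicates 1 to 5. The shTet2 libraries differed from each other by more than the controls did, and the log2 fold change of 0.65 (SE 0.22) missed the threshold (adjusted p = 0.143). It passed in the fit without shTet2 replicate 1 (0.98, adjusted p = 0.00399), which leaves a lone library assumed to vary like the others, in the fit with no filter (0.67, adjusted p = 0.0395) and in the model of all 4 groups (0.65, adjusted p = 0.0366). Gadd45a ranged over 26.0 to 34.6 CPM in KO and 22.0 to 26.5 CPM in WT cells (0.21, SE 0.12, adjusted p = 0.371), and over 5.39 to 6.41 CPM in shTet2 and 6.00 to 10.7 CPM in control lymphoma cells (-0.36, SE 0.29, adjusted p = 0.513). It shares 337 exon bases with E230016M11Rik on the other strand, a row with 614 counts in all GC libraries. Per kilobase, Gadd45g stood at 0.140 ± 0.0150 of the Gadd45b level in KO and 0.0825 ± 0.0107 in WT GC B cells, and at 0.326 ± 0.117 in shTet2 and 0.504 ± 0.101 in control lymphoma cells.

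The 19 partners of GADD45 and genes of the stress and p53 response held 1 higher and 2 lower calls in KO GC B cells (median 0.06). Ppp1r15a, also known as Gadd34, a stress gene that restores translation, rose to 255 ± 50.5 CPM in KO cells, against 124 ± 24.6 CPM in WT cells (0.97, SE 0.20, adjusted p = 0.0229). The early response gene Egr1 changed by -0.63 (SE 0.10) and the NF-kB inhibitor gene Nfkbia by -0.42 (SE 0.11). On leaving out a library the Egr1 call held in all 7 fits, while 4 of 7 lost the Ppp1r15a call (adjusted p up to 0.0917, edgeR) and 4 of 7 that of Nfkbia (adjusted p up to 0.134). In shTet2 lymphoma cells 0 were called higher and 2 lower, the early response genes Atf3 (-2.69, SE 0.44) and Fos (-1.02, SE 0.15), and both calls were lost without shTet2 replicate 2 (adjusted p = 0.104 and 0.138, edgeR). Ppp1r15a (-1.38), Atf3 (-2.79) and Fos (-1.70) passed in the difference between effects, those of Ppp1r15a and Fos not without shTet2 replicate 2 (adjusted p = 0.0861 and 0.104).

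**Figure D5:**
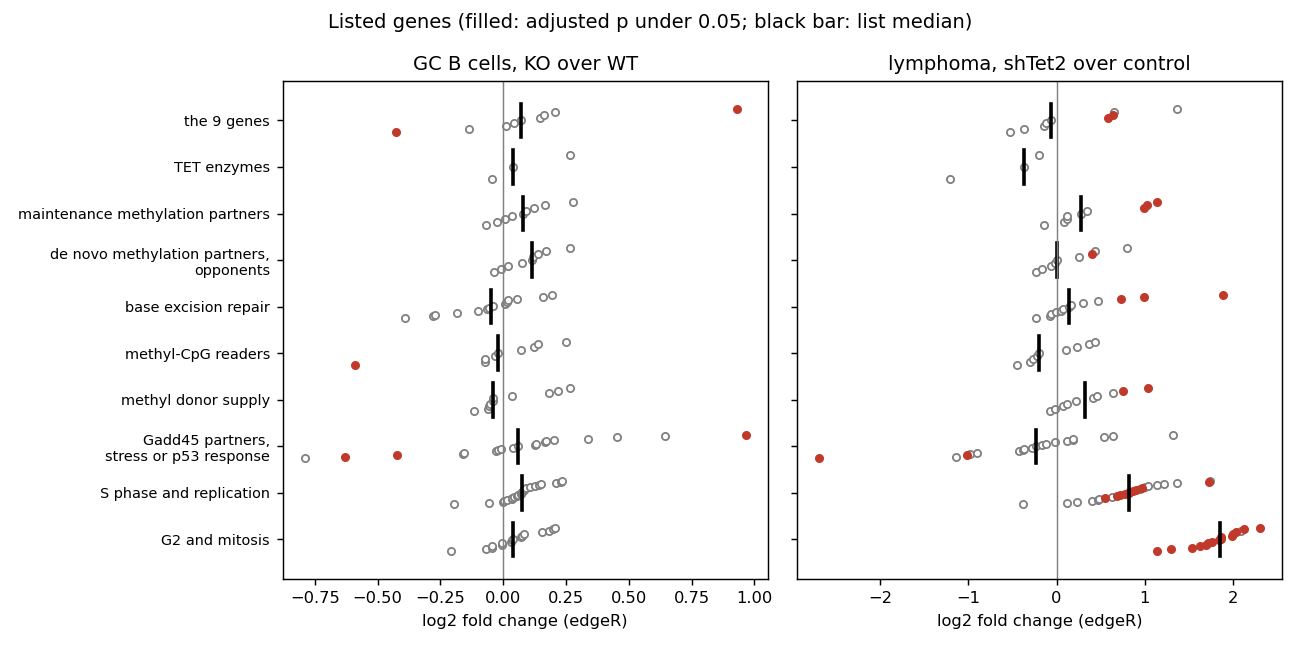
Log2 fold change (edgeR) of the 9 genes and of listed gene groups in GC B cells (left, KO over WT) and lymphoma cells (right, shTet2 over control), one point per gene, filled at an adjusted p under 0.05, with a black bar at the median of each list. In lymphoma cells the medians of the S phase (0.82) and mitosis lists (1.85) lie to the right of that of the 9 genes (-0.07), and in GC B cells these medians are 0.07, 0.04 and 0.07.

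The genes differed in level between control lymphoma and WT GC B cells. Cell type, experiment and the presence of Y-linked transcripts cannot be told apart there. Dnmt3a was higher in control lymphoma cells, at 89.2 ± 6.45 CPM against 33.7 ± 2.34 CPM in WT GC B cells (log2 fold change 1.41, SE 0.10, adjusted p = 2.98e-11). Tdg (0.54, SE 0.16) and Dnmt3b (0.44, SE 0.18, adjusted p = 0.0322) were higher by less, and both calls were lost with no filter (0.39 and 0.29), the Dnmt3b call also in 5 of 14 fits that left out a library. Uhrf1 was 15.8-fold lower in control lymphoma cells, at 23.8 ± 9.53 CPM against 391 ± 31.3 CPM in WT GC B cells (-3.98, SE 0.20). Gadd45b was 9.80-fold lower (-3.29, SE 0.14), Mbd4 5.26-fold (-2.40, SE 0.11), Dnmt1 4.96-fold (-2.31, SE 0.11), Gadd45a 3.38-fold (-1.76, SE 0.16) and Gadd45g 1.61-fold lower (-0.68, SE 0.18). The median of all genes was 0.10 in this contrast and moved to 0.29 with median-of-ratios scaling and to 0.57 with upper-quartile scaling, under which the Gadd45g call was lost (-0.21). The signs of all 9 genes were the same under these scalings. S phase genes were lower in control lymphoma cells for 24 of 24 (median -3.35) and mitosis genes for 16 of 16 (median -4.24). GC B-cell markers held 0 higher and 6 lower calls of 7 tested (median -4.27), and B-cell markers 1 higher and 4 lower of 6. T-cell markers held 7 higher and 1 lower call of 8 (median 2.63), the lower one Lck (-2.61). Their sum was 39.1 to 85.3 CPM, against 179 to 230 CPM in WT, and as the other 7 were higher, this lower sum rests on Lck. Myeloid markers held 4 higher and 0 lower calls of 12. The part of these lists and of the Y-linked sums was not tested. Tet2 (3.44), Tet1 (1.94) and Tet3 (1.90) were higher in control lymphoma cells.

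The balance of de novo and maintenance transcripts differed between the GC and the lymphoma libraries. Cell type, experiment and the presence of Y-linked transcripts cannot be told apart there. Per kilobase, Dnmt3a stood at 0.00963 ± 0.000559 of the Dnmt1 level in KO and 0.0136 ± 0.00136 in WT GC B cells, without overlap, and at 0.110 ± 0.00780 in shTet2 and 0.183 ± 0.0314 in control lymphoma cells, again without overlap. In the order of mean levels over the 4 groups, Dnmt1, Uhrf1 and Mbd4 ran KO, WT, shTet2, control from high to low, with overlap only between KO and WT. Dnmt3a ran KO, WT, shTet2, control from low to high, with overlap only between the lymphoma groups. Gadd45g was highest in KO GC B cells, then in WT GC B cells, and its lymphoma groups overlapped at 8.27 ± 0.0677 CPM in shTet2 and 8.37 ± 1.99 CPM in control cells.

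The genes whose levels followed each of the 9 most closely were ranked by Pearson's r of log2 CPM over the 14 libraries, after centring each table on its own mean, among 8605 genes. Libraries of a group share treatment and depth, so these values are descriptions. Uhrf1 was closest to the mitotic kinesin genes Kif14 (0.99) and Kif22 (0.98), and Dnmt1 to Cog2 (0.97), of a Golgi tethering complex, and the condensin gene Ncapd2 (0.96). Mbd4 was closest to Magt1 (0.95) and the helicase gene Helq (0.95), Gadd45b to Dtx3 (0.96) and Pop1 (0.96), Tdg to Coq10b (0.92) and the clock gene Cry2 (0.89), and Dnmt3a to Cyb561a3 (0.91) and Arhgap24 (0.90). Gadd45g was closest to Fbrs (0.88) and Ptp4a3 (0.88), Gadd45a to the heat shock factor gene Hsf1 (0.88) and Whamm (0.87), and Dnmt3b to Trim12c (0.79) and Aco1 (0.73). Among the 9 genes, Dnmt1 went with Uhrf1 (0.93) and Mbd4 (0.88) over the 14 libraries. Within the 7 GC libraries, Gadd45a went with Gadd45b (0.90) and Gadd45b with Gadd45g (0.89), and Dnmt3a ran against Gadd45a (-0.89), while within the 7 lymphoma libraries these were -0.41, 0.36 and -0.18.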

How the data were processed

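Stranded mRNA libraries were made with a TruSeq kit, per the labels' protocols, and, per the submitters' processing notes, aligned to GRCm38.p3 with STAR 2.3.0e. Raw read counts per gene, deposited by the authors beside exon lengths in bases, came from featureCounts 1.5.1 over GENCODE vM3 exons without a strand or paired-end option, per the file headers. A hand-written list of ribosomal and structural RNA (14 rows matched) was removed before library sizes were taken. Tests were quasi-likelihood tests of edgeR 4.0.16 (R 4.3.3), with robust fits after TMM scaling and filterByExpr by group. P-values were adjusted by Benjamini-Hochberg over all genes tested, and an adjusted p under 0.05 counted as a call. The GC and lymphoma tables were fitted separately. The difference between effects and control lymphoma against WT GC B cells used one model of all 14 libraries. Alternatives included DESeq2 1.42.0, limma-voom (limma 3.58.1), other scalings, other filters and leaving out each library.

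The 9 genes and the gene lists were chosen with earlier results of these data known. Named beside the 9 genes and the Tet genes were up to 4 genes per direction of each list that passed, smallest p first, or, of a list without calls, the 1 gene of smallest p (some are left out), and the 2 closest in pattern. On simulated data 72% of 2-fold changes in the GC comparison (13587 genes) and 60% in the lymphoma comparison (12544 genes) were recovered. For the difference 39% were recovered, and between control lymphoma and WT GC B cells 49%. Of the simulated calls, 6.29%, 8.02%, 6.42% and 4.84% in that order fell on unchanged genes. With no gene changed, 0 were called. No libraries were copies of each other. Some marker genes are not reported here.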

Additional observations from a re-analysis of the deposited data

Results flagged for a closer look

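Within groups of 4 or 5 libraries, 3 values stood apart from the others of their group by Dixon's criterion, among 24 tested sets of values, where chance sets apart about 1 in 20. Dnmt3a was lowest in KO GC replicate 2, at 22.4 CPM. Gadd45b was lowest in KO GC replicate 4, at 187 CPM. Mbd4 was highest in control lymphoma replicate 5, at 52.8 CPM.

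The shTet2 change in lymphoma cells less the KO change in GC B cells was 1.26 (log2) for Uhrf1 (adjusted p = 0.0242, edgeR). For Gadd45g it was -1.06 (adjusted p = 0.0357). On leaving out a library 2 of 14 fits lost the Uhrf1 call and 9 of 14 that of Gadd45g, and neither was called with the replicate block. Cell type, experiment and the presence of Y-linked transcripts cannot be told apart here. Both shTet2 libraries were above all 5 controls for Uhrf1, and all 4 KO libraries above all 3 WT libraries for Gadd45g.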

How the results depend on the processing

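With 2 shTet2 libraries, and 1523082 counts in the shallowest control, small changes of low genes were not detectable in lymphoma cells. Counts of called genes moved by over 1.5 times in the lymphoma comparison (332 genes) with DESeq2 (580), with no filter (785) and in the model of all 4 groups (862), and ran over 101 to 2498 on leaving out a library, 2498 without shTet2 replicate 1 and 101 without control replicate 3. For the difference between effects (736) they were 1181 with DESeq2 and 387 to 1971 on leaving out a library.

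Replicate numbers were not used to pair the libraries in the main tests. Same-numbered libraries had correlations of deviations of 0.03 and -0.03 in GC and -0.04 and 0.02 in lymphoma cells. So few pairs cannot show whether the numbers pair libraries. With the replicate block 406 genes were called in GC, 4 in lymphoma and 429 for the difference, with 0 of the 9 genes in each. Blocked contrasts rest only on libraries that share a number, replicates 3 and 4 in GC and 1 and 2 in lymphoma cells. Blocked values were -0.41 for Dnmt3a, 0.73 for Gadd45g and 0.042 (sign turned) for Dnmt3b in GC cells, 0.77 for Dnmt1, 0.73 for Mbd4 and 0.31 (sign turned) for Gadd45g in lymphoma cells, and 1.56 for Uhrf1 and -0.44 for Gadd45g for the difference.

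Of the 9 genes, 4 were called in lymphoma cells in the model of all 4 groups, and for the difference 1 with limma-voom (Gadd45g lost, -1.05) and 4 with no filter. Leaving out a library gave 1 to 2 called in GC cells, 0 to 3 in lymphoma cells (3 without shTet2 replicate 1) and 0 to 4 for the difference. With no filter Dnmt1 was called for the difference (0.57), Gadd45b in lymphoma cells (0.67), Dnmt3b turned sign for the difference (0.045), and Dnmt3b (0.29) and Tdg (0.39) were lost between control lymphoma and WT GC cells. Uhrf1 in lymphoma cells was called with DESeq2 (1.39), limma-voom (1.39) and the model of all 4 groups (1.38), and Gadd45b with that model (0.65). Mbd4 was called for the difference with DESeq2 (0.59), median-of-ratios scaling (0.59), upper-quartile scaling (0.58), no filter (0.68) and ribosomal rows kept (0.59). Upper-quartile scaling ended the Gadd45g call between control lymphoma and WT GC cells (-0.21) and turned Apobec3 (0.17) and Mapk14 (0.10).

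Leaving out a library gave, in GC cells, -0.48 to -0.35 for Dnmt3a, -0.068 to 0.064 for Mbd4 and -0.030 to 0.10 for Tet2. In lymphoma cells it gave 0.49 to 0.66 for Dnmt1, -0.34 to 0.040 for Dnmt3b, 1.13 to 1.56 for Uhrf1, 0.44 to 0.81 for Mbd4, 0.22 to 0.98 for Gadd45b and -0.20 to 0.032 for Gadd45g. For the difference it gave -0.15 to 0.14 for Dnmt3b, 1.14 to 1.47 for Uhrf1, 0.50 to 0.76 for Mbd4, 0.11 to 0.77 for Gadd45b and -1.18 to -0.94 for Gadd45g, and between control lymphoma and WT GC cells 0.32 to 0.55 for Dnmt3b. Causes were not tested.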
